A study of Mus musculus with 4 samples.

Results

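Expression of 10 genes of bone morphogenetic protein (BMP) signalling was followed in single-cell RNA sequencing of mouse small intestinal adenomas. They were taken by name from the gene tables and comprised the ligands Bmp2, Bmp3, Bmp4 and Bmp7, the protease Bmp1, the receptors Bmpr1a and Bmpr2, and the target genes Id1, Id2 and Id3, which is 10 of the 27514 genes listed in all tables. Adenomas came from C57BL/6 mice aged 11 weeks, labelled male, of the genotypes ApcMin/+;Lef1 +/+ (ApcMin) and ApcMin/+;Lef1 fl/fl; Villin-Cre (VApcMinL). Both groups carry the ApcMin allele, which predisposes to intestinal adenomas, and VApcMinL mice also carry floxed Lef1 with a Cre driven by the Villin promoter, which acts in the intestinal epithelium and not in the stroma. Each of the 4 libraries, 2 per genotype, was made from several pooled, dissociated tumors that were not sorted, so a library is not an animal and p-values measure the spread between these libraries. In cells pooled by class, fewer transcribing cells and less RNA per cell cannot be told apart. The reagent kit was of version 2 for both first replicates and of version 3 for both second replicates.

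BMP ligands bind a complex of a type 1 receptor, such as Bmpr1a, and a type 2 receptor, such as Bmpr2, which phosphorylates the transcription factors Smad1, Smad5 and Smad9. These join Smad4 in the nucleus, where the Id genes are among the classical direct targets, and Id proteins block basic helix-loop-helix transcription factors. In the intestine, mesenchymal cells beneath the epithelium are a known source of BMP ligands, antagonists such as Gremlin 1 keep signalling low around the crypt base, and inherited loss of BMPR1A or SMAD4 gives juvenile polyps. Bmp1 is named with the ligands but is a metalloprotease that processes procollagen and cleaves the antagonist Chordin, and Bmp3 is a ligand that opposes other BMPs in several settings.

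The Id genes were higher in adenoma cells than in crypt cells and enterocytes, as given below. For this reason the letters GGCGCC (a GC-rich Smad1/5 motif) and CAGAC (a Smad motif), on both strands, were searched in RefSeq promoter windows (GRCm38.p6). These windows run from 250 bases before to 50 bases after a start site. Windows were found for 5 of the 10 genes (Bmp4, Bmpr1a, Bmpr2, Id2 and Id3). In the Id2 window the stretch outside exons is shown, chr12:25096254-25096342 on the minus strand, an intron of the longer transcript Id2-202, with GGCGCC in capitals at 231 bases before the start. In the Id3 window 30 bases are shown around each CAGAC match in capitals, chr4:136143643-136143672 and chr4:136143742-136143771 on the plus strand. Both stretches overlap an untranslated region of Id3-201, and the second reads GTCTG because the match is on the opposite strand.
Id2: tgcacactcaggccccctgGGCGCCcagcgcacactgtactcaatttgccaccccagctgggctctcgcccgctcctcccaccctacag
Id3, first match: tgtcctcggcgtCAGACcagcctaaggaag
Id3, second match: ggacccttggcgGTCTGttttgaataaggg
GGCGCC was present in the windows of Id2, Bmpr1a and Bmpr2 and in 11.9% of all 32851 windows, and CAGAC or its reverse complement in that of Id3 and in 49.6% of all windows. These matches describe letters and do not show binding.

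The libraries held between 44660305 and 128247396 unique molecular identifiers (UMIs, each standing for 1 captured transcript). After removal of barcodes under 1000 UMIs or over 20% mitochondrial UMIs, 2840, 2962, 2145 and 4448 cells were kept. These and all values below are in the order ApcMin and VApcMinL replicate 1 (kit version 2), then ApcMin and VApcMinL replicate 2 (kit version 3). The mitochondrial limit removed 62.9% of barcodes in ApcMin replicate 2 and 27.3% to 30.5% in the others. The 2 kit version 2 libraries shared 18 barcodes, 1 other pair shared 1 and the remaining pairs none. Lef1 and Xist did not follow the labels: Lef1 stood at 9.86, 27.0, 38.0 and 24.4 UMIs per 1000000 UMIs in adenoma cells, and Xist, which is expressed from the inactive X chromosome of females, at 0.0836, 1154, 0.0765 and 334 although all mice were labelled male. Whether the counted 3′ end of Lef1 lies outside the deleted part is not given in the sources used here. VApcMinL below therefore means the library labelled so.

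Cells were assigned to 5 classes by marker lists that hold none of the 10 genes, and UMIs were summed per class and library and expressed as counts per 1000000 UMIs of that sum (CPM). Adenoma cells (high in Wnt targets such as Notum and Prox1) numbered 487, 606, 334 and 1858, crypt cells 89, 29, 47 and 116, and enterocytes 393, 965, 1091 and 757. Fibroblasts numbered 114, 63, 37 and 19 and endothelial cells 125, 68, 8 and 7, so the stromal values of the kit version 3 libraries rest on few cells. Epcam stood at 1638 to 2822 CPM in the 3 epithelial classes, Col1a1 at 2649 to 4098 in fibroblasts and Pecam1 at 799 to 1361 in endothelial cells. The labels held for these markers with 2 exceptions. The crypt class had 25.6, 9.10, 1325 and 1858 CPM of the stem cell marker Olfm4 and so lacked most of it in the kit version 2 libraries. Its median share of the crypt marker list was 7.25, 6.95, 17.5 and 21.4 per 10000 UMIs, against 6.52, 5.75, 6.37 and 6.56 in adenoma cells. With kit version 2 the crypt list thus hardly parted these classes. The fibroblast class held smooth muscle and pericyte transcripts, with Acta2 at 1223 to 2221 and Rgs5 at 1047 to 3575 CPM.

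**Figure D1:**
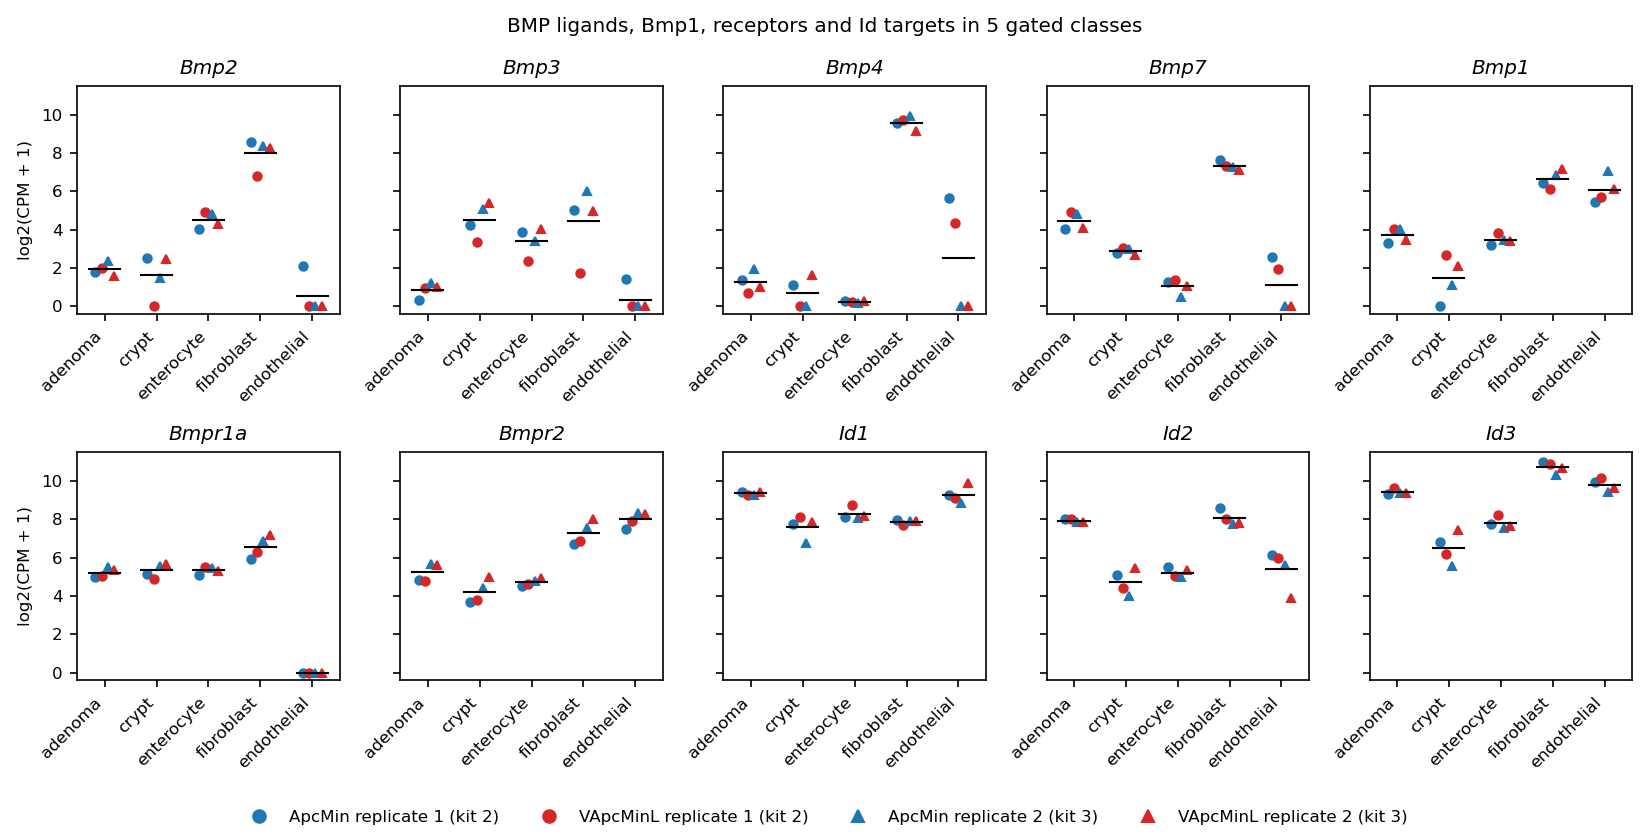
Level of each of the 10 genes, as log2(CPM + 1), in the 5 cell classes; each point is 1 library (circles kit version 2, triangles kit version 3, blue ApcMin, red VApcMinL) and the line is the mean of 4. Bmp2, Bmp4 and Bmp7 stand highest in fibroblasts, Bmpr1a is at 0 in every endothelial sum, and Id1, Id2 and Id3 are higher in adenoma cells than in crypt cells and enterocytes in all 4 libraries.

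Classes were compared within libraries with edgeR's quasi-likelihood test on the 20 sums, p-values adjusted over all 11497 genes tested, and called at an adjusted p under 0.05. All 10 genes passed the count filter, which was applied over all classes, so that a gene could pass through a single class. Such a gene can hardly be called lower in that class, so the directions of the calls below are partly set by the filter. In adenoma against crypt cells 6 of the 10 rose and 1 fell, where 29.9% of all genes tested were called, and the median log2 difference was 1.22 for the 10 genes and 0.02 for all genes. In adenoma cells against enterocytes 5 rose and 3 fell against a background of 74%, and in crypt cells against enterocytes 2 rose and 6 fell against 64.2%, so these counts lie near the background. In fibroblasts against adenoma cells 8 rose and 1 fell (background 52.9%, median 2.36 against -0.08 for all genes), in endothelial against adenoma cells 3 rose and 3 fell (background 47.8%), and in fibroblasts against endothelial cells 7 rose and 2 fell (background 21.9%, median 3.57 against 0.10). The scaling matters for the epithelial comparisons. With library totals in place of TMM factors, a choice made after seeing the data, the median of all genes moved from 0.12 to 0.68 in adenoma cells against enterocytes, from 0.00 to 0.43 in crypt cells against enterocytes and from 0.02 to 0.16 in adenoma against crypt cells. The share of called genes that were higher moved from 53.9% to 72.1%, from 50% to 66.3% and from 52.7% to 67.7% in the same comparisons.

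Bmp4, a principal mesenchymal BMP ligand, was a fibroblast transcript. It stood at 747, 860, 962 and 559 CPM in fibroblasts, at 1.59, 0.621, 2.83 and 1.05 in adenoma cells, at 1.19, 0, 0 and 2.08 in crypt cells and at 0.237, 0.179, 0.139 and 0.225 in enterocytes. Every fibroblast library was above every library of the other classes, by 475-fold over adenoma cells in the fitted comparison (log2 difference 8.89 ± 0.36 SE, edgeR adjusted p = 5.78e-15). Endothelial cells held 48.7 and 19.8 CPM with kit version 2 and 0 of 83758 and 0 of 73270 UMIs with kit version 3, which allows up to 35.8 and 40.9 CPM. After thinning each cell to 1000 UMIs, 40.4% to 48.6% of fibroblasts carried a Bmp4 UMI and no enterocyte did, against 73% to 79.4% and 0.207% to 0.396% without thinning, at median depths of 5794 to 14111 and 9600 to 26271 UMIs per cell. Barcodes with 10 to 100 UMIs, which hold mainly free RNA, had 10.8 to 18.9 Bmp4 CPM, more than any epithelial class. Bmp4 was called higher in adenoma cells than in enterocytes (2.43 ± 0.59, edgeR adjusted p = 0.000826), but both levels lie under that of the near-empty barcodes, and the call ended after thinning.

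Bmp2 was also highest in fibroblasts of the 5 classes and, of the 3 epithelial ones, in enterocytes. Its levels were 379, 109, 333 and 310 CPM in fibroblasts, 15.7, 29.6, 27.5 and 18.9 in enterocytes, 2.51, 2.95, 4.13 and 1.98 in adenoma cells and 4.76, 0, 1.75 and 4.58 in crypt cells. The enterocyte values did not overlap those of adenoma or crypt cells. In near-empty barcodes Bmp2 stood at 8.55 to 10.2 CPM, under the enterocyte range and over those of adenoma and crypt cells. Bmp2 was 12.5-fold lower in adenoma cells than in enterocytes (log2 difference -3.64 ± 0.31 SE, edgeR adjusted p = 7.8e-10) and 9.33-fold lower in crypt cells than in enterocytes (-3.22 ± 0.46, adjusted p = 2.55e-06). Adenoma and crypt cells did not differ by the test (-0.42 ± 0.58, edgeR adjusted p = 0.63). In fibroblasts it was 90.4-fold higher than in adenoma cells (6.50 ± 0.35, edgeR adjusted p = 7.94e-13). Endothelial cells held 2 Bmp2 UMIs in all, a ratio of 166 for fibroblasts over endothelial cells with a counting interval of 45.8 to 1375.

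Adenoma cells carried more Bmp7 than crypt cells and enterocytes. It stood at 15.4, 29.6, 27.1 and 16.1 CPM in adenoma cells, 5.95, 7.28, 7.01 and 5.42 in crypt cells and 1.42, 1.61, 0.381 and 1.13 in enterocytes, and these ranges did not overlap. The difference was 15.0-fold against enterocytes (log2 3.91 ± 0.28 SE, edgeR adjusted p = 5.43e-11) and 3.02-fold against crypt cells (1.59 ± 0.31, adjusted p = 0.000455). Crypt cells in turn exceeded enterocytes (2.31 ± 0.42, edgeR adjusted p = 5.39e-05). Near-empty barcodes held 8.72 to 13.8 CPM, under the adenoma range and over that of crypt cells and enterocytes. Fibroblasts were higher still, at 198, 161, 156 and 137 CPM (2.79 ± 0.23 against adenoma cells, edgeR adjusted p = 1.13e-09), and endothelial cells held 4 Bmp7 UMIs in all. Among epithelial cells outside the 5 classes, goblet and Paneth cells held 11.3, 5.03, 8.67 and 15.7 Bmp7 CPM, and the 28 tuft cells of VApcMinL replicate 2 held 24.9 from 11 UMIs, above the adenoma cells of that library.

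Bmp3 was lower in adenoma cells than in both other epithelial classes. Its levels were 17.9, 9.10, 32.7 and 41.2 CPM in crypt cells, 14.0, 4.11, 9.57 and 15.5 in enterocytes and 0.251, 0.932, 1.30 and 1.05 in adenoma cells. All 4 libraries were lower in adenoma cells, by 30.6-fold against crypt cells (log2 difference -4.94 ± 0.39 SE, edgeR adjusted p = 4.95e-09) and by 17.4-fold against enterocytes (-4.12 ± 0.36, adjusted p = 1.03e-09). Crypt cells were called higher than enterocytes (0.82 ± 0.32, edgeR adjusted p = 0.032) with overlapping ranges, and this call was lost in 6 of 13 alternatives, with a difference of 0.20 at a mitochondrial limit of 10%. In fibroblasts Bmp3 varied widely, at 32.1, 2.37, 64.8 and 30.5 CPM, with 1 UMI behind the value of VApcMinL replicate 1. Endothelial cells held 1 Bmp3 UMI in all.

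The ligands were spread unevenly among fibroblasts. Cells of this class were split at 20 UMIs per 10000 of the smooth muscle and pericyte list (Acta2, Myh11, Des, Tagln, Rgs5), which left 43, 31, 17 and 10 cells at or over the limit. Below the limit Bmp2 stood at 521, 142, 535 and 544 CPM, and at or over it at 153, 80.0, 42.0 and 146. Bmp4 was likewise lower at or over the limit, at 534, 618, 340 and 388 against 881, 1137, 1392 and 804, and so was Bmp7, at 129, 147, 65.3 and 60.3 against 241, 178, 219 and 247. All 3 were lower in the cells rich in smooth muscle transcripts in every library, whereas Id3 was higher there in 3 of 4 libraries, at 2562, 1672, 1604 and 1826 against 1731, 2167, 1083 and 1336. Across single fibroblasts Bmp2 and Bmp7 had Spearman coefficients of 0.63, 0.37, 0.59 and 0.70, Bmp4 and Bmp7 of 0.49, 0.38, 0.82 and 0.41, and Bmp4 and Bmp2 of 0.35, 0.089, 0.70 and 0.37, over 114, 63, 37 and 19 cells that differ in depth. Without the cells at or over the limit, an alternative added after seeing the data, the fibroblast difference from adenoma cells was 7.03 for Bmp2 and 9.24 for Bmp4 on the log2 scale.

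**Figure D2:**
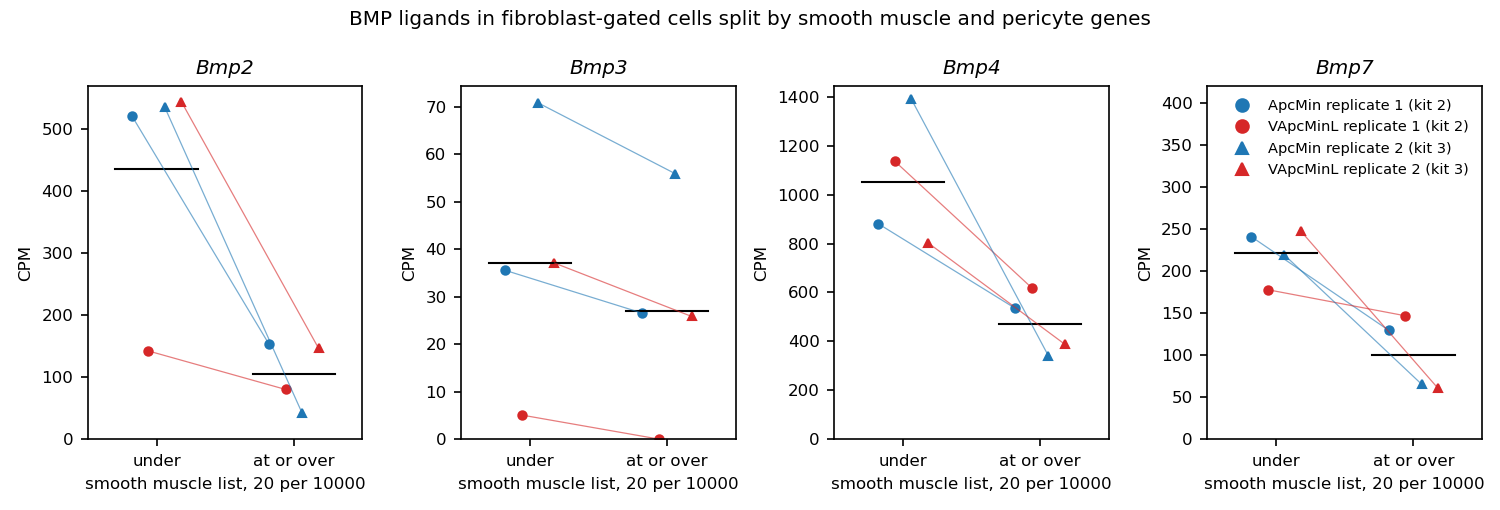
CPM of Bmp2, Bmp3, Bmp4 and Bmp7 in fibroblasts under, and at or over, 20 UMIs per 10000 of the smooth muscle and pericyte list; lines join the same library and black bars are means of 4 libraries. Bmp2, Bmp4 and Bmp7 fall from left to right in all 4 libraries, Bmp4 from 804 to 1392 down to 340 to 618.

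Bmp1, the procollagen and Chordin protease, was mainly stromal and lowest in crypt cells. It stood at 86.0, 68.7, 116 and 142 CPM in fibroblasts and at 41.9, 50.9, 131 and 68.2 in endothelial cells, whose ranges overlapped and whose difference was not called (log2 0.80 ± 0.33 SE, edgeR adjusted p = 0.092). Adenoma cells held 8.78, 15.2, 15.4 and 10.2, enterocytes 8.30, 13.3, 10.2 and 9.47, and crypt cells 0, 5.46, 1.17 and 3.33. Adenoma cells were 5.33-fold above crypt cells (2.41 ± 0.43, edgeR adjusted p = 0.000184), while their difference from enterocytes was not called (-0.32 ± 0.22, adjusted p = 0.20). The crypt values rest on 13 UMIs in all. In near-empty barcodes Bmp1 stood at 9.18 to 15.9 CPM, a range that overlapped those of adenoma cells and enterocytes and lay over that of crypt cells.

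The 2 receptors had different distributions. Bmpr1a, the type 1 receptor that binds Bmp2 and Bmp4, was present in all 3 epithelial classes, at 30.6, 32.1, 44.4 and 39.5 CPM in adenoma cells, 35.1, 29.1, 47.3 and 49.6 in crypt cells and 32.7, 45.4, 42.4 and 38.6 in enterocytes. All 3 ranges overlapped. The difference between adenoma and crypt cells was -0.31 ± 0.17 SE (edgeR adjusted p = 0.17), and that between adenoma cells and enterocytes was called at -0.69 ± 0.15 (adjusted p = 0.000308). With library totals the latter was -0.13 (edgeR adjusted p = 0.44), the only 1 of 13 alternatives to end the call. Between crypt cells and enterocytes the difference of -0.38 was not called. It was called in some alternatives, such as -0.57 without the low-count filter (edgeR adjusted p = 0.012), and was 0.042 with library totals. Fibroblasts carried more, at 60.3, 78.2, 116 and 142 (2.32-fold over adenoma cells, edgeR adjusted p = 1e-05). No Bmpr1a UMI was found among 1106988 endothelial UMIs, which allows up to 2.71 CPM over the class, so that its level was at least 14.0-fold lower than in adenoma cells and at least 32.4-fold lower than in fibroblasts.

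Bmpr2, the type 2 receptor, was instead highest in endothelial cells among the 5 classes. It stood there at 181, 240, 322 and 314 CPM, and at 104, 116, 189 and 259 in fibroblasts. The epithelial levels were 28.0, 27.0, 50.5 and 48.5 in adenoma cells, 11.9, 12.7, 20.4 and 30.4 in crypt cells and 22.1, 23.3, 26.7 and 30.1 in enterocytes. In every class both kit version 3 libraries exceeded both kit version 2 libraries, and the comparisons between classes were made within libraries. Endothelial cells exceeded adenoma cells 5.99-fold (log2 2.58 ± 0.16 SE, edgeR adjusted p = 1.72e-11) and fibroblasts 1.58-fold (-0.66 ± 0.17 for fibroblasts minus endothelial cells, adjusted p = 0.00612). The second call was lost without the library block (-0.56, edgeR adjusted p = 0.18), without ApcMin replicate 1 (-0.60) and without VApcMinL replicate 1 (-0.52). Bmpr2 was 1.81-fold higher in adenoma than in crypt cells (0.86 ± 0.17, edgeR adjusted p = 0.000531), a call lost after thinning, while against enterocytes the difference was -0.01 ± 0.14 (adjusted p = 0.96) and 0.55 (adjusted p = 0.00163) with library totals. Near-empty barcodes held 50.9 to 114 CPM, more than any epithelial class.

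The 3 Id genes were higher in adenoma cells than in crypt cells and enterocytes in all 4 libraries, with no overlap of the ranges. Id1 stood at 696, 620, 622 and 685 CPM in adenoma cells, 216, 280, 107 and 229 in crypt cells and 283, 426, 271 and 285 in enterocytes. Id2 stood at 255, 262, 234 and 230 in adenoma cells, 33.3, 20.03, 15.2 and 43.3 in crypt cells and 44.1, 31.6, 30.7 and 40.3 in enterocytes. Id3 stood at 647, 783, 666 and 673 in adenoma cells, 110, 72.8, 47.3 and 174 in crypt cells and 212, 303, 187 and 197 in enterocytes.

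Against crypt cells Id2 had the widest difference, 7.82-fold (log2 2.97 ± 0.23 SE, edgeR adjusted p = 4.07e-09), followed by Id3 at 6.25-fold (2.64 ± 0.25, adjusted p = 7.25e-08) and Id1 at 2.97-fold (1.57 ± 0.21, adjusted p = 5.2e-06). These 3 calls held in all 14 alternatives run, thinning included. Against enterocytes the differences were 4.58-fold for Id2 (2.20 ± 0.20, edgeR adjusted p = 2.24e-09), 2.11-fold for Id3 (1.07 ± 0.23, adjusted p = 0.000243) and 1.41-fold for Id1 (0.50 ± 0.20, adjusted p = 0.026). The last call was weak: it was lost in 6 of 14 alternatives, with an adjusted p of up to 0.17, among them the fits without ApcMin replicate 1 (0.37) and without VApcMinL replicate 2 (0.48), and was 1.07 with library totals. Crypt cells lay below enterocytes for Id1 (-1.07 ± 0.20, edgeR adjusted p = 9.02e-05) and Id3 (-1.57 ± 0.25, adjusted p = 8.02e-06). Both genes were lower in crypt cells in every library, but the ranges of Id1 overlapped and those of Id3 did not. For Id2 the difference of -0.77 ± 0.23 (edgeR adjusted p = 0.00568) turned to 0.07 at a mitochondrial limit of 10%, and the ranges overlapped.

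Free RNA also carried these transcripts. Near-empty barcodes held 477 to 524 CPM of Id1, 104 to 144 of Id2 and 586 to 737 of Id3. Adenoma cells lay above this level for Id1 and Id2 and overlapped it for Id3, and crypt cells and enterocytes lay below it for all 3 genes. After thinning to 1000 UMIs, an Id2 UMI was seen in 18.6% to 22.8% of adenoma cells, 0% to 6.03% of crypt cells and 3.21% to 5.09% of enterocytes, against 84.7% to 90.3%, 27.6% to 40.4% and 24.6% to 36.8% without thinning. Id3 was seen in 45.8% to 51.5%, 3.45% to 14.7% and 16.9% to 26.9% of thinned cells of these classes. The 3 genes varied together from cell to cell in adenoma cells, with Spearman coefficients of 0.42, 0.49, 0.58 and 0.51 for Id1 and Id3 and 0.25 to 0.39 for Id1 and Id2, over 487, 606, 334 and 1858 cells that share library and vary in depth. In enterocytes the coefficients of Id1 and Id3 were 0.26 to 0.31.

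**Figure D3:**
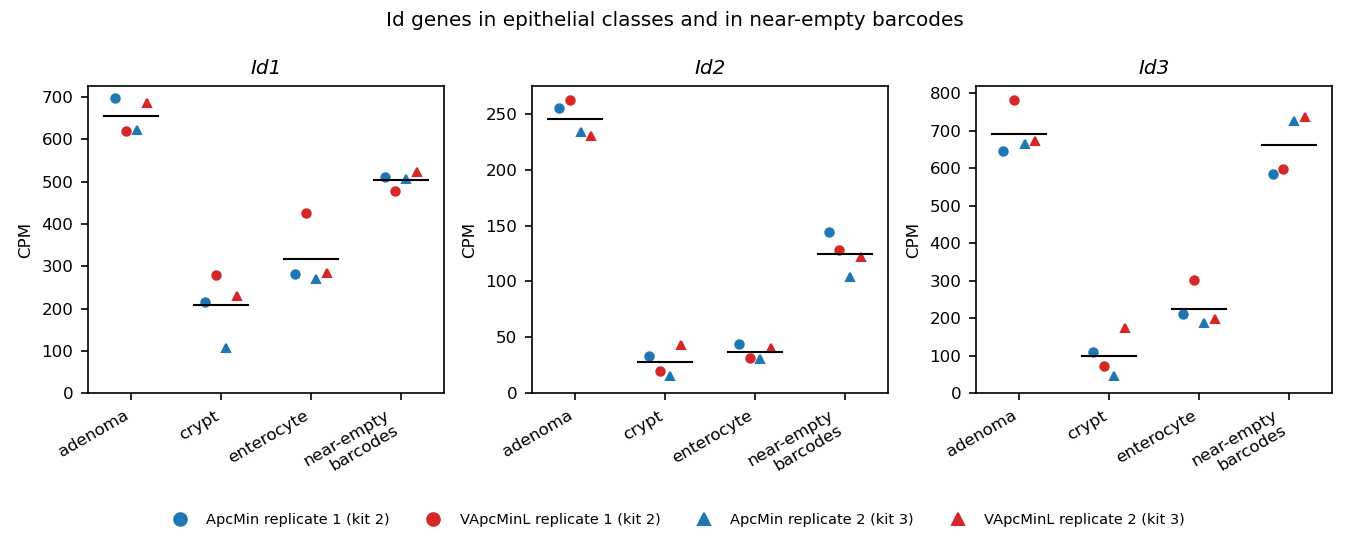
CPM of Id1, Id2 and Id3 in adenoma cells, crypt cells, enterocytes and barcodes with 10 to 100 UMIs; points are libraries and lines are means of 4. Adenoma cells lie above crypt cells and enterocytes in every library, and the near-empty barcodes lie between for Id1 and Id2 and overlap the adenoma values for Id3.

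In the stroma the Id genes parted. Among the 5 classes Id3 was highest in fibroblasts, at 2052, 1903, 1296 and 1625 CPM (2.22-fold over adenoma cells, log2 1.15 ± 0.23 SE, edgeR adjusted p = 0.000246), and stood at 978, 1136, 681 and 792 in endothelial cells. Id1 was lower in fibroblasts, at 253, 209, 238 and 239, than in adenoma cells (-1.61 ± 0.21, edgeR adjusted p = 1.32e-06), and endothelial cells at 616, 551, 454 and 969 overlapped adenoma cells. Id2 stood at 388, 256, 217 and 223 in fibroblasts, a range that overlapped adenoma cells (log2 difference -0.0014 ± 0.20, edgeR adjusted p = 0.997), and at 70.5, 62.2, 47.8 and 13.6 in endothelial cells (-2.33 ± 0.28 against adenoma cells, adjusted p = 4.13e-07). Smooth muscle cells, a group of 4 to 13 cells per library outside the 5 classes, held 2788, 2121, 2592 and 890 CPM of Id3, more than fibroblasts in 3 of 4 libraries. The Id3 difference between fibroblasts and endothelial cells (1.02 ± 0.24, edgeR adjusted p = 0.003) was not called without the endothelial sums of kit version 3 (0.82, adjusted p = 0.072), a choice made after seeing the data.

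**Figure D4:**
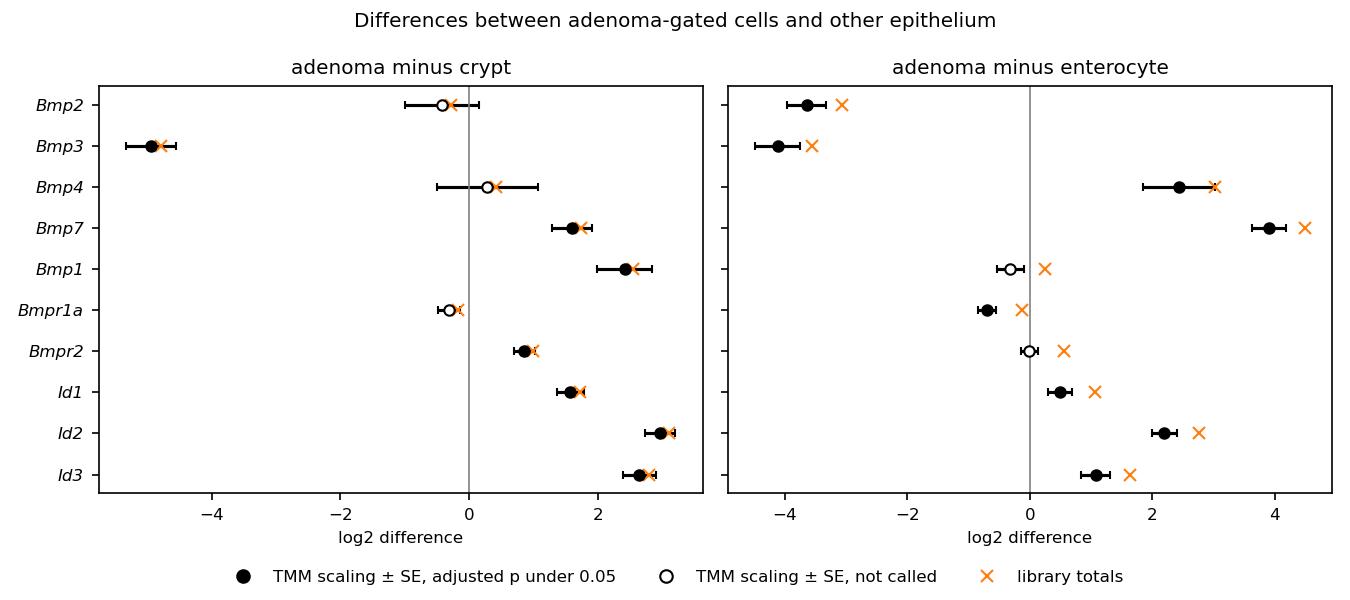
Log2 difference of the 10 genes between adenoma and crypt cells (left) and between adenoma cells and enterocytes (right); circles are edgeR estimates with TMM scaling ± SE, filled where the adjusted p was under 0.05, and crosses are estimates with library totals. Bmp3 lies lowest in both panels and Id2 is the highest gene against crypt cells, and against enterocytes the crosses of Bmp1 and Bmpr2 lie above 0 while their circles lie below it.

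Of 45 other genes of the pathway, 27 passed the count filter of the class comparisons. In adenoma against crypt cells 10 of the 27 rose, 2 fell and 15 were not called, where 29.9% of all genes were called. Of 5 listed targets, the 4 that were tested (Hamp, Msx1, Atoh8, Id4) rose, and Msx2 was not tested. The inhibitory Smads Smad6 (3.93-fold) and Smad7 (3.104-fold) and the antagonists Bambi (4.80-fold), Fst (4.23-fold) and Fstl1 rose too. A gene that passed the count filter only through adenoma cells could hardly be called lower there. The directions of these calls are therefore also partly set by the filter. Hamp, which encodes the iron hormone hepcidin, stood at 82.0, 46.8, 27.1 and 28.9 CPM in adenoma cells and 5.95, 0, 0 and 2.50 in crypt cells (log2 4.15 ± 0.54 SE, edgeR adjusted p = 1.14e-05). Msx1, a homeobox gene, stood at 159, 25.9, 47.4 and 223 against 10.7, 1.82, 0.584 and 31.7 (3.34 ± 0.36, edgeR adjusted p = 4e-07). The genes that fell were the co-receptor Rgmb, at 7.10, 10.3, 11.9 and 7.81 against 39.9, 40.1, 33.3 and 37.1 (-2.17 ± 0.20, edgeR adjusted p = 4.98e-08), and Smad4 (-0.73 ± 0.16, adjusted p = 0.00171).

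Against enterocytes 11 of the 27 rose in adenoma cells and 6 fell, a smaller share than the 74% of all genes called. The largest rises were those of Atoh8 (4.82 ± 0.48 SE, edgeR adjusted p = 8.15e-09) and Id4 (4.81 ± 0.50, adjusted p = 1.47e-08), both at under 10 CPM in adenoma cells, and the largest falls those of the antagonist Nbl1 (-3.35 ± 0.22, adjusted p = 1.43e-11) and the receptor Acvr2a (-1.86 ± 0.18, adjusted p = 6.93e-09). Nbl1 stood at 18.7, 44.9, 19.7 and 18.7 CPM in enterocytes and at 2.36 to 5.36 in adenoma cells. In crypt cells against enterocytes 9 rose and 6 fell against a background of 64.2%, with Fstl1 (2.87 ± 0.49, edgeR adjusted p = 2.62e-05) and Id4 (2.86 ± 0.86, adjusted p = 0.00602) at the top and Nbl1 (-3.89 ± 0.37, adjusted p = 6.93e-09) and Smad7 (-1.89 ± 0.24, adjusted p = 5.34e-07) at the bottom.

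In fibroblasts against adenoma cells 15 of the 27 rose and 2 fell, where 52.9% of all genes were called. Genes that passed the count filter only through a stromal class could hardly be called lower there. The directions of the stromal calls are therefore partly set by the filter. Of the 7 tested antagonists 5 rose in fibroblasts and 4 in endothelial cells, each against adenoma cells. The ligand Bmp5 stood at 158, 126, 276 and 305 CPM in fibroblasts and Grem1, which encodes the BMP antagonist Gremlin 1, at 77.01, 159, 463 and 15.2, against 5 and 4 UMIs in all among 92978457 of adenoma cells. Grem1 was thus uneven between libraries, and no Grem1 UMI was found in endothelial cells, at least 71.6-fold lower than in fibroblasts. Hamp was not found in fibroblasts, at least 24.3-fold lower than in adenoma cells, and Msx1 was lower there (-3.95 ± 0.50 SE, edgeR adjusted p = 6.17e-07). Endothelial cells carried the receptors Eng at 1131, 1136, 907 and 764 and Acvrl1 at 315, 223, 310 and 218 CPM, both under 2 in every adenoma library. In endothelial against adenoma cells 14 of the 27 rose and 3 fell against a background of 47.8%, the latter including Hamp (1 UMI in endothelial cells, a ratio of 42.0 with a counting interval of 7.53 to 1659) and Fst (2 UMIs, 17.95, 4.97 to 148). In fibroblasts against endothelial cells 9 rose and 5 fell against a background of 21.9%, with Bmp5 (1 UMI in endothelial cells, a ratio of 219, 39.1 to 8686) among the former and Eng (-2.58 ± 0.32, edgeR adjusted p = 2.12e-06) and the pseudoreceptor Bambi (-2.02 ± 0.37, adjusted p = 0.00021) among the latter.

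VApcMinL was compared with ApcMin in each class with the kit version as a block, the question being whether BMP genes differ with the genotype label. Xist in adenoma cells was high in both VApcMinL libraries and almost absent from both ApcMin libraries, as given above. The comparison therefore cannot tell genotype from sex. Lef1 was not consistently lower in the VApcMinL libraries, so the label is not taken as a measure of epithelial Lef1. In adenoma cells none of the 10 genes was called by edgeR among 12783 tested, where the background was 0%, with 28 genes and none of the 10 at an unadjusted p under 0.05. DESeq2 called 3 genes and none of the 10. Estimates were at most 0.15 in size on the log2 scale for Bmp1, Bmp7, Bmpr1a, Bmpr2, Id1, Id2 and Id3. The largest was that of Bmp4 at -1.38 ± 0.59 SE (edgeR adjusted p = 1.00), lower in VApcMinL with both kits but at levels under 3 CPM, followed by Bmp3 at 0.62 ± 0.89 and Bmp2 at -0.43 ± 0.53. With 4 libraries and a kit block, 1 residual degree of freedom is left, and no call is not evidence that the genotypes are alike.

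Within kits, 7 of the 10 genes had opposite differences. Bmp7 in adenoma cells was higher in VApcMinL with kit version 2 (15.4 to 29.6 CPM from ApcMin to VApcMinL) and lower with kit version 3 (27.1 to 16.1), and Bmp1 did the same (8.78 to 15.2, and 15.4 to 10.2). The adenoma marker Prox1 (103, 262, 421 and 186) and the crypt marker Lgr5 (14.2, 64.9, 87.8 and 33.6) moved in the same directions within kits. Their part in the ligand values was not tested. Only Bmp4, Bmpr2 and Id3 had the same sign with both kits, and for Bmpr2 this was a difference of -0.05 with kit version 2 and -0.06 with kit version 3 on the log2(CPM + 1) scale.

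In the other classes none of the 10 genes was called. Of 7 tested in crypt cells the background was 0.0111%, of 9 in enterocytes 0.00896%, of 10 in fibroblasts 0.0154% and of 5 in endothelial cells 0.0264%, which is 1 gene in each class, Xist. DESeq2 also called none of the 10, and edgeR gave an unadjusted p under 0.05 for Id1 in crypt cells and for Bmp2 and Bmp3 in fibroblasts (300 of 8987 and 190 of 6481 genes in all). Id1 in crypt cells was higher in VApcMinL with both kits, and Bmp2 and Bmp3 in fibroblasts were lower with both, as the values above show. None of these passed adjustment (edgeR adjusted p = 1.00).

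**Figure D5:**
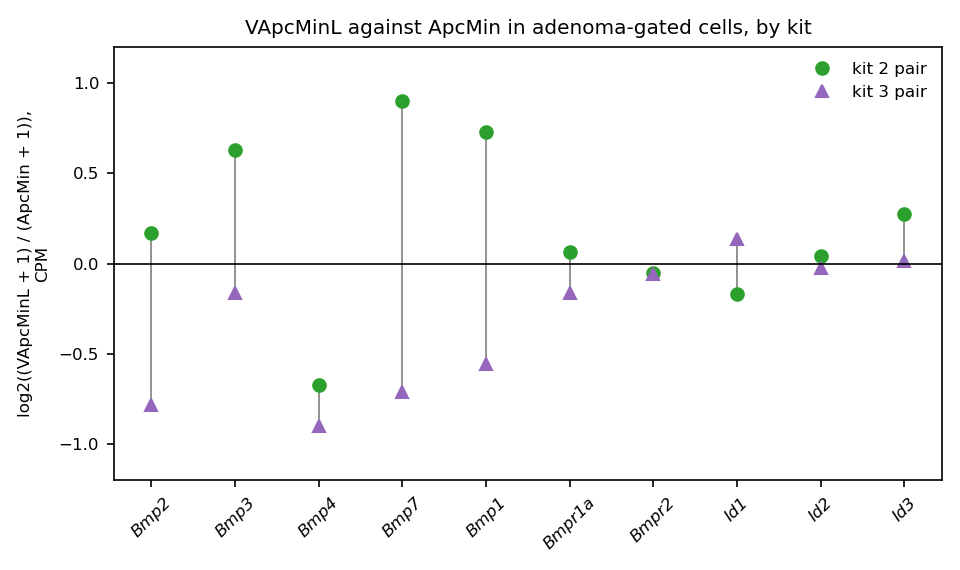
Difference between VApcMinL and ApcMin in adenoma cells for each gene, as log2((VApcMinL + 1) / (ApcMin + 1)) of CPM, for the pair of libraries made with kit version 2 (circles) and kit version 3 (triangles); each point is 1 pair and there is no error bar. The pairs lie on opposite sides of 0 for 7 of 10 genes, from 0.90 to -0.71 for Bmp7, and lie close to 0 for Id2.

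As a description of which genes had the most similar pattern, Pearson's r of log2(CPM + 1) was taken over the 20 sums against 12791 genes at 10 or more CPM in at least 1 sum. The closest to Bmp4 were Antxr1 (0.99) and Rasl11a (0.99), to Bmp2 Fstl3 (0.96) and Slitrk6 (0.93), to Bmp7 Fgfr2 (0.96) and Ltbp3 (0.95), and to Bmp1 Trp53inp2 (0.96) and Map4 (0.95). Bmp3 had the loosest matches, Acpp (0.85) and Insc (0.85). For the receptors they were Parm1 (0.96) and Egfr (0.95) for Bmpr1a and Rhoa (0.98) and Rap1b (0.98) for Bmpr2. For the targets they were Ablim1 (0.87) and the adenoma marker Prox1 (0.87) for Id1, Rbms3 (0.93) and H1fx (0.92) for Id2, and Pdlim7 (0.95) and Timp2 (0.93) for Id3. Prox1 was among the markers that gated adenoma cells, so its pattern over the classes was partly set by the gates. The 20 sums share libraries and differ in depth.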

How the data were processed

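Single-cell suspensions of adenomas were sequenced on the 10x platform (4 libraries). The authors deposited raw UMI counts per gene and barcode, unfiltered; Cell Ranger 2.1.1 and Seurat 3.1.1 are named in the submitters' processing notes, and the matrix headers name software 3.1.0. From these deposited counts, barcodes with at least 1000 UMIs and at most 20% mitochondrial UMIs were kept. Classes were gated by the summed share of each marker list, and cells over limits for other cell types were left out (numpy 2.4.6, pandas 2.3.3). Every class except enterocytes needed at least 3 detected markers. Crypt cells could hold at most 1 detected adenoma marker and enterocytes at most 3. Doublets were not removed; scanpy 1.11.5 Scrublet calls were removed in an alternative. Counts were summed per class and library and fitted with edgeR 4.0.16 in R 4.3.3 (quasi-likelihood, TMM, filterByExpr at a minimum count of 10, Benjamini-Hochberg, 0.05), with library (class comparisons, 20 sums) or kit version (genotype comparisons, 4 sums) as a block. DESeq2 1.42.0 was an alternative, and the fits were tested on simulated counts. Genes of the marker lists entered the fits and were given no test. A count of 0 was taken to allow 3 counts; intervals and such limits cover counting error only, and ratios with 1 to 3 counts have exact binomial 95% intervals. Values after ± are standard errors (SE) of log2 differences.

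The 10 genes and the lists were chosen with earlier results of these data known, and gate thresholds were set after marker values had been seen. Named genes were all 10, the 2 called genes with the largest difference in each direction of a list of 45 pathway genes per class comparison, and the 2 genes most similar in pattern to each of the 10. Smad6, Smad7, Bambi and Fst against crypt cells were named after their values were seen. Same-numbered replicates share a kit version only. Alternatives are given in the closing section.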

Additional observations from a re-analysis of the deposited data

Results flagged for a closer look

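For 7 of the 10 genes the VApcMinL library moved one way from ApcMin with kit version 2 and the opposite way with kit version 3 in adenoma cells, on the log2(CPM + 1) scale, with 1 pair of libraries per kit. The differences were 0.73 and -0.55 for Bmp1, 0.17 and -0.78 for Bmp2, 0.63 and -0.16 for Bmp3, 0.90 and -0.71 for Bmp7, 0.067 and -0.16 for Bmpr1a, -0.17 and 0.14 for Id1, and 0.042 and -0.023 for Id2, each given for kit version 2 and then 3. The difference between the kits was not tested, since each kit holds 1 library of each genotype. The 4 values behind the Id2 differences lie between 230 and 262 CPM and those behind Bmpr1a between 30.6 and 44.4 CPM.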

How the results depend on the processing

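Thinning each cell to 1000 UMIs changed the counts of called genes most. It left 5 of the 10 genes and 3127 of 11497 genes to test between classes. Some genes that were still tested lost their calls, such as Bmpr2 in adenoma against crypt cells (0.68, edgeR adjusted p = 0.48). Thinning called 3 of the 10 in adenoma against crypt cells (7 without thinning), 3 in adenoma cells against enterocytes (8), 2 in crypt cells against enterocytes (8), 4 in fibroblasts against adenoma cells (9) and 5 in fibroblasts against endothelial cells (9). In endothelial against adenoma cells it called 4 (6). With 1 library left out the counts were 7 to 7, 7 to 8, 7 to 8, 9 to 9, 8 to 9 and 6 to 6 in that order, and under the other alternatives 6 to 10 in crypt cells against enterocytes, 7 to 9 in adenoma cells against enterocytes and 8 to 10 in fibroblasts against endothelial cells. No genotype comparison called any of the 10 under any alternative that gave a test.

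Reversals were almost all of differences near 0 that were not called, and the cause was not tested. Between adenoma and crypt cells Bmp2 was 0.054 with a doubled marker share and -0.86 to 0.19 with 1 library left out (0.19 without VApcMinL replicate 2), and Bmp4 was -0.32 with a doubled share, -2.36 after thinning and -0.53 to 1.65 with 1 library left out (-0.53 without ApcMin replicate 2). Between adenoma cells and enterocytes Bmpr2 was 0.0079 without the replicate block, 0.020 at a floor of 2000 UMIs, 0.026 with a doubled share, 0.10 after thinning, 0.034 without Scrublet doublets, -0.14 to 0.094 with 1 library left out (0.094 without VApcMinL replicate 1) and 0.55 with library totals, and Bmp1 was 0.75 at a mitochondrial limit of 10% (called, edgeR adjusted p = 0.020) and 0.25 with library totals. Between crypt cells and enterocytes Id2, a call, was 0.074 at a mitochondrial limit of 10%, and Bmpr1a was 0.042 with library totals. Between fibroblasts and adenoma cells Id2 was 0.080 with DESeq2, 0.036 without the replicate block, 0.047 at a floor of 2000 UMIs, 0.10 after thinning, 0.060 without Scrublet doublets, 0.055, 0.13 and 0.080 without each of 3 libraries and -0.20 without ApcMin replicate 1, 0.13 with library totals, 0.084 without smooth muscle cells and 0.019 without the kit version 3 endothelial sums. Between endothelial and adenoma cells Bmp3 was -0.12 without the replicate block and -5.68 to 0.70 with 1 library left out (-5.68 without ApcMin replicate 1), and Id3 was -0.0024 to 0.30 (-0.0024 without that library). Between genotypes in adenoma cells Id2 was -0.0026 without the low-count filter, -0.0036 with DESeq2, -0.00066 at a mitochondrial limit of 10% and -0.051 after thinning, Id1 was 0.016 with a doubled share, and Bmpr2 was 0.57 after thinning.

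Counts over all genes fell with thinning to 418 (from 3442) in adenoma against crypt cells, 2212, 1707, 1358, 1484 and 594 in the other class comparisons, to 2164 in adenoma against crypt cells without the replicate block and 2282 without ApcMin replicate 2, and to 1657 (from 2521) in fibroblasts against endothelial cells without ApcMin replicate 1. Counts between genotypes ranged from 0 to 38. Leaving out 1 library leaves no residual degrees of freedom between genotypes, so these fits give values and no test: Bmp7 in adenoma cells ranged from -0.68 to 0.86, Bmp1 from -0.53 to 0.71, Bmp2 from -0.99 to 0.15 and Bmp3 from -0.23 to 1.79. The labels' replicate numbers mark a shared kit version only, and the fits without the replicate block changed the calls named here and above and, in crypt cells against enterocytes, ended those of Bmp3 and Id2. Library totals, the fibroblasts without smooth muscle cells and the fits without kit version 3 endothelial sums were chosen after seeing the data. The stromal values of kit version 3 rest on 7 to 37 cells per library, which limits what low genes can show there.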

Other observations

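Cells outside the 5 classes also carried the 10 genes. Immune cells (512, 371, 114 and 240 in the 4 libraries) were the only one of the 5 other cell groups examined in which Id2 exceeded both Id1 and Id3 in every library, at 165, 245, 168 and 243 CPM against 61.4, 40.3, 35.4 and 27.3 for Id1 and 61.9, 45.4, 47.7 and 54.5 for Id3. In lymphoid cells Id2 is known as a regulator of innate lymphoid development. Goblet and Paneth cells held Id1 at 263, 252, 216 and 226, Id2 at 46.5, 32.7, 36.3 and 59.3 and Bmp2 at 16.9, 12.6, 21.7 and 13.0. Their Bmp7, at 11.3, 5.03, 8.67 and 15.7, was above that of enterocytes (1.42, 1.61, 0.381 and 1.13) in every library. Enteroendocrine cells, 11 to 41 per library, had Id2 at 898, 179, 312 and 220 CPM, against 230 to 262 in adenoma cells. Id2 thus lay above the adenoma range in both ApcMin libraries and below it in both VApcMinL libraries. With kit version 2, enteroendocrine Id1 was 731 and 359, against 620 to 696 in adenoma cells over all libraries. Their Id3 was 680 and 340 with that kit, against 647 to 783, from 11 cells in each library. No test was run on these values.

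Msx1 in adenoma cells stood at 159, 25.9, 47.4 and 223 CPM, so that within each kit it was high where Bmp7 (15.4, 29.6, 27.1 and 16.1) was low. This is a description of 4 libraries, noticed after the values were seen, and was not tested.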
